A study of Mus musculus with 6 samples.

Results

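The genes described here are the mouse genes of the major histocompatibility complex (MHC, H2 in the mouse) and of antigen processing, as they were read out in lung tissue of GRdim/dim and GR+/+ mice after hemorrhagic shock (HS). They were taken from the deposited counts by their symbols. Every protein-coding gene whose symbol begins with H2- was included, together with B2m, Tap1, Tap2, Tapbp, Psmb8, Psmb9, Psmb10, Erap1, Cd74, Ciita, Nlrc5 and Ctss. This gave 46 of 54532 genes, of which 33 belong to the class I pathway, 12 to the class II pathway and 1, H2-Ke6, to neither, since it encodes a metabolic enzyme and only lies in the same region. The rule uses no measured value.

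Each genotype was represented by 3 lungs, and poly(A)-captured RNA of each was sequenced as a library of its own. GRdim/dim mice carry a germline point mutation in both copies of the glucocorticoid receptor gene that impairs dimerization of the receptor in every cell, and GR+/+ mice were littermates on the same 129/SvEv x C57BL/6 background. All mice, 10 to 16 weeks of age, underwent HS for 1 h, were given their blood back and were resuscitated for 4 h under ventilation, fluids and norepinephrine, so that no lung without HS is among these libraries. The counts summed to 16361747 to 32082940 per GR+/+ library and 15687734 to 24444604 per GRdim/dim library. Female mice were 2 of the 3 GR+/+ and 1 of the 3 GRdim/dim animals by the study's methods, and Xist, the transcript of the inactive X chromosome, stood at 340 and 463 CPM in GR+/+ lungs 2 and 3, at 309 CPM in GRdim/dim lung 2 and at 0.837 CPM or less in the others. Transcripts of Nr3c1, which encodes the receptor, stood at 138, 145 and 162 CPM (counts scaled to a library total of 1000000 with TMM factors) in GR+/+ lungs 1, 2 and 3 and at 159, 150 and 120 CPM in GRdim/dim lungs. A point mutation leaves the transcript in place, so this level does not check the genotype. The 7 genes chosen as markers of lung identity, Sftpc and Scgb1a1 among them, were detected in every library.

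MHC class I molecules are built from a heavy chain and the light chain beta-2-microglobulin, and they show peptides from inside the cell to CD8 T cells and to NK cells. The proteasome cuts these peptides, the TAP transporter carries them into the endoplasmic reticulum, tapasin holds the empty heavy chain beside TAP and the aminopeptidase ERAP1 trims the peptides to length. MHC class II molecules show peptides from swallowed material to CD4 T cells. The invariant chain Cd74 blocks their groove until cathepsins such as Ctss degrade it, and the DM proteins then exchange its last fragment for an antigenic peptide, a step that the DO proteins restrain. Interferon induces both pathways, with Nlrc5 as the transactivator of class I genes and Ciita as that of class II genes. Class II molecules are abundant on B cells, dendritic cells and macrophages, and in the mouse lung also on alveolar type 2 cells.

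No MHC or antigen-processing gene reached the threshold for a differentially expressed gene (DEG) between GRdim/dim and GR+/+ lungs, although every one of those tested had its point estimate on the GRdim/dim side. Of the 46 genes, 35 had enough reads to be tested, 23 of class I and 12 of class II. A DEG was required to have a log2 fold change beyond 0.5 and, in the quasi-likelihood test of edgeR, an adjusted p below 0.05 (Benjamini-Hochberg, over all 16568 genes tested). By this rule 28 genes of the whole table were DEGs (0.169%), 12 of them higher in GRdim/dim lungs (0.0724%), and DESeq2, with 274 DEGs among 16143 genes (1.7%), also called 0 of the members. An edgeR fit that kept genes of low counts, with 522 DEGs among 31368 genes (1.66%), called Nlrc5 and H2-Ob. The log2 fold changes of the 23 class I genes ran from 0.10 to 1.21 with a median of 0.40, and those of the 12 class II genes from 0.05 to 0.93 with a median of 0.60. The median over all genes tested was 0.01, and 8439 of them (50.9%) had a value above 0.

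At an unadjusted p under 0.05 in edgeR, 8 of the 23 class I genes and 7 of the 12 class II genes were higher in GRdim/dim lungs and 0 were lower, beside 814 genes higher (4.91%) and 776 lower (4.68%) in the whole table. The class I count was 1 without GR+/+ replicate 1, 3 without GR+/+ replicate 3, 4 without GRdim/dim replicate 1 and 3 without GRdim/dim replicate 3. The class II count was 4 without GR+/+ replicate 1, 4 without GR+/+ replicate 2, 1 without GR+/+ replicate 3, 2 without GRdim/dim replicate 2 and 2 without GRdim/dim replicate 3, and 4 with a covariate for sex-linked expression. Shares of all genes at an unadjusted p under 0.05 are given for the fit without covariates to all 6 libraries, not for these fits. The class I median was 0.25 without GR+/+ replicate 1 and 0.66 without GR+/+ replicate 2. The 3 lungs of each genotype did not overlap for 5 class I genes (Tapbp, H2-Q4, Psmb10, Tap2 and Psmb8) and 5 class II genes (H2-Aa, Ctss, H2-DMb2, H2-Ob and H2-Eb2), all of them higher in GRdim/dim lungs, where 1288 of all genes tested (7.77%) were separated in that direction and 1168 (7.05%) in the other. Genes of one pathway are read from the same 6 lungs and often from the same cells, so these counts are not independent observations.

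**Figure D1:**
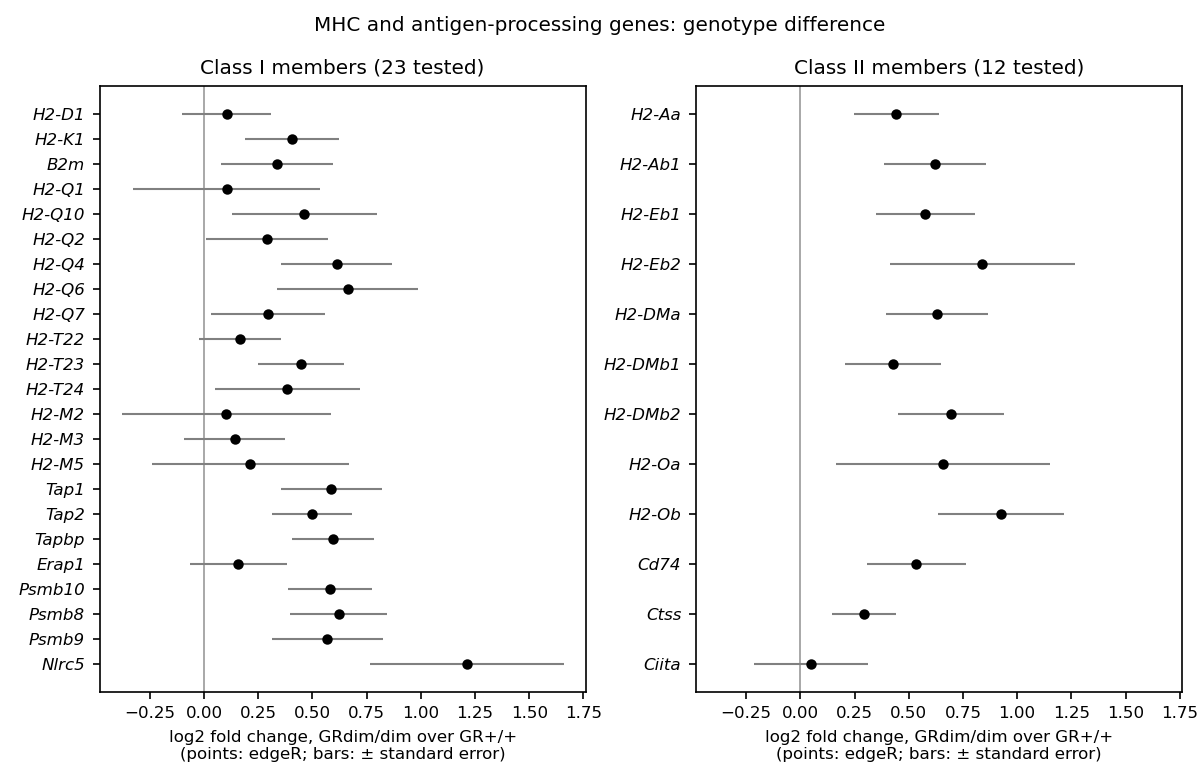
Genotype difference of each tested class I and class II gene, as the log2 fold change of GRdim/dim over GR+/+ lungs from edgeR (points) with its standard error (bars), 3 lungs per genotype. All 35 points lie above 0, from 0.05 for Ciita to 1.21 for Nlrc5, and none of these genes was a DEG.

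In these lungs B2m and Cd74 were the most abundant members per length of transcript. Levels per kilobase, in CPM divided by the gene length in the deposited counts, are given as mean ± SD of the 3 GR+/+ lungs. In the class I pathway B2m stood at 755 ± 116, H2-D1 at 427 ± 49.97 and H2-K1 at 314 ± 66.7, followed by H2-Q6 at 71.8 ± 40.5, Tapbp at 71.3 ± 8.99, H2-Q4 at 65.4 ± 26.7 and H2-T23 at 59.1 ± 13.8. The order among H2-Q6, Tapbp, H2-Q4 and H2-T23 was within their spread. In the class II pathway Cd74 stood at 699 ± 104, H2-Eb1 at 214 ± 28.3, H2-Ab1 at 173 ± 8.46, H2-Aa at 166 ± 9.55 and Ctss at 77.5 ± 4.31, with H2-Ab1 and H2-Aa within their spread of each other. The transactivators were low, at 1.72 ± 0.643 for Nlrc5 and 2.80 ± 0.771 for Ciita.

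The 11 members that could not be tested had few or no reads. H2-M1, H2-M10.1, H2-M10.3, H2-M10.4, H2-M10.5, H2-M10.6 and H2-M11 had 0 counts in all 6 libraries, where 3 counts, the level that a count of 0 still allows, correspond to 0.0953 to 0.194 CPM. H2-T3 had 0 to 10 counts per library, H2-M10.2 0 to 5, H2-M9 0 to 2 and H2-Ke6 1 to 12. Exons of H2-Ke6 overlap those of Gm20427 on the same strand by 1419 bases, so its count is uncertain. Of the M region, whose products include chaperones of vomeronasal receptors and the N-formyl peptide binder H2-M3, only H2-M2, H2-M3 and H2-M5 were tested.

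All but 7 of the 46 members lie on chromosome 17, the others being B2m on chromosome 2, Ctss on 3, Nlrc5 and Psmb10 on 8, Erap1 on 13, Ciita on 16 and Cd74 on 18. The deposited coordinates are those of GRCm38. H2-K1 (chr17:33996017-34000333) marks one end of the classical region, the block of class II, Tap and inducible proteasome genes follows up to H2-Eb2 (chr17:34325665-34340229), and H2-D1 (chr17:35262730-35267499) opens the stretch of Q, T and M genes. RefSeq promoter windows of 300 bases (GRCm38.p6, 250 before to 50 after the start) were found for 39 members by symbol, and 25 tested members had one within 500 bases of the start in the deposited counts. Shares below count genes with a match in any of their windows. Member windows were limited to those near the start in the deposited counts, and those of all genes were not. The letters GATTGG (or CCAATC on the other strand) are the core of the Y box at which NF-Y binds. They occurred in 10 of the 18 class I genes (55.6%) and 6 of the 7 class II genes (85.7%), beside 18.2% of all 27025 genes with a window. The longer form CTGATTGG, which contains that core, occurred in 7 of 18 (38.9%), 4 of 7 (57.1%) and 4.70%. The interferon regulatory factor letters GAANNGAAA occurred, on either strand, in 8 of 18 class I genes (44.4%), in 1 of 7 class II genes (14.3%) and in 8.68% of all genes with a window, and the kappaB letters GGGATTCCC in 4 of 18 (22.2%), 0 of 7 and 0.414%. The letters TTCNNNGAA of a gamma-activated site occurred in 2 of 18 (11.1%), 0 of 7 and 9.55%. The palindromic core of a glucocorticoid response element, inverted hexamers with a short spacer, occurred in 0 of these 25 members and in 0.537% of all genes with a window. At so low a share, 0 of 25 does not set these members apart from other genes. All these letters were chosen after the sequences had been seen, and a match describes letters and not a binding site. Other spacings and forms, and sequence outside the windows, were not searched.

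The promoter stretches of 6 of these genes, 200 to 6 bases before the RefSeq start, are shown because they carry these letters at like distances from the start in both classes. They are H2-Q4 (chr17:35379417-35379611, plus strand), H2-Q6 (chr17:35424650-35424844, plus strand), B2m (chr2:122147487-122147681, plus strand), H2-Aa (chr17:34287829-34288023, minus strand), H2-Eb1 (chr17:34305667-34305861, plus strand) and H2-Ob (chr17:34238705-34238899, plus strand). Capitals mark GATTGG or CCAATC, the interferon regulatory factor letters in H2-Q4 and H2-Q6, and the kappaB letters in H2-Q6. The B2m stretch also holds gaaactgaaa, a like form of the interferon regulatory factor letters with a wider gap. That spacing was not searched for and is left in lower case, so B2m is not counted among the genes with these letters.
H2-Q4: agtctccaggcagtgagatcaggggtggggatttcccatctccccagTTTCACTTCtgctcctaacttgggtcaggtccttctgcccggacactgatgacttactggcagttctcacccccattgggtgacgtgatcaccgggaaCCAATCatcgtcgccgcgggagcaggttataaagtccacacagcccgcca
H2-Q6: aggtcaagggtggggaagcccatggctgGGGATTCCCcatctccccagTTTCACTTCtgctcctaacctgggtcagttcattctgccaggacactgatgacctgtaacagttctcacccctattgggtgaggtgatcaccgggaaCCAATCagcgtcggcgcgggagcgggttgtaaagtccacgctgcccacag
B2m: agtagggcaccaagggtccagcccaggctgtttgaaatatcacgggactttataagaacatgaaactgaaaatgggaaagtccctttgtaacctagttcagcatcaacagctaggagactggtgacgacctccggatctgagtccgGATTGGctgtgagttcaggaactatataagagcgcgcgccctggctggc
H2-Aa: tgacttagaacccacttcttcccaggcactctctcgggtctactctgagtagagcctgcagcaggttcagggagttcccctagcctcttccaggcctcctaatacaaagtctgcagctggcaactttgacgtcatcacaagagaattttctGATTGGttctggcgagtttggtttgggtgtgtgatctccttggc
H2-Eb1: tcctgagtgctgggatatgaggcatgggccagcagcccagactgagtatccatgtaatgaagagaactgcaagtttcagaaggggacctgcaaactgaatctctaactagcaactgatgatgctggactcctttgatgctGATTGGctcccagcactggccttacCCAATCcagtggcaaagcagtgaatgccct
H2-Ob: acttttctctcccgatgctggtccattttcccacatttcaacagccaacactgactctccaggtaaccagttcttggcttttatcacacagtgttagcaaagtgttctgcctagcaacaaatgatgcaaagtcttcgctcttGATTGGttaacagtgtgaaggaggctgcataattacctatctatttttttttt
The core began 49 to 60 bases before the start in all 6 stretches, and H2-Eb1 held a second copy at -35. The interferon regulatory factor letters began at -153 in H2-Q4 and -152 in H2-Q6, and the kappaB letters at -172 in H2-Q6.

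The classical class I genes, which present peptides on nearly all cells, showed small differences. H2-K1 stood at 630, 974 and 851 CPM in GR+/+ lungs 1, 2 and 3 and at 958, 1100 and 1193 CPM in GRdim/dim lungs 1, 2 and 3. GR+/+ replicate 2 lay above GRdim/dim replicate 1, and the genotypes overlapped (log2 fold change 0.40 ± 0.22 SE, adjusted p = 0.602, edgeR), with 0.25 without GR+/+ replicate 1. H2-D1 stood at 987, 1241 and 1073 CPM against 1034, 1117 and 1400 CPM, a log2 fold change of 0.11 ± 0.20 (adjusted p = 0.934, edgeR), which was -0.03 without GRdim/dim replicate 3. The light chain B2m stood at 563, 758 and 627 CPM against 1140, 724 and 594 CPM (0.33 ± 0.26, adjusted p = 0.757, edgeR). Only GRdim/dim replicate 1 lay above the GR+/+ lungs for B2m, and the log2 fold change was 0.03 without it and 0.52 without GRdim/dim replicate 3.

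Among the non-classical heavy chains, the Q region genes H2-Q4 and H2-Q6 had the widest genotype differences. H2-Q4 stood at 117, 248 and 144 CPM in GR+/+ lungs and 251, 255 and 272 CPM in GRdim/dim lungs, and H2-Q6 at 90.9, 246 and 112 CPM against 229, 259 and 222 CPM. In both genes the GRdim/dim lungs were close together, while GR+/+ replicate 2 stood near them and far above the other GR+/+ lungs. The log2 fold changes were 0.61 ± 0.26 for H2-Q4 (adjusted p = 0.486, edgeR) and 0.66 ± 0.32 for H2-Q6 (adjusted p = 0.569, edgeR). Without GR+/+ replicate 2 they were 0.99 and 1.23, and without GR+/+ replicate 1 both were 0.41. H2-Q7, which together with H2-Q6 and other Q genes encodes the membrane-bound Qa-2 molecules, stood at 83.5, 173 and 87.3 CPM against 132, 149 and 141 CPM and showed the same high GR+/+ replicate 2.

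Summed over its 6 genes, the Q region stood at 310, 684 and 357 CPM in GR+/+ lungs and 635, 680 and 659 CPM in GRdim/dim lungs. The sum was thus almost equal in 4 of the 6 lungs, and the 2 lower lungs were both GR+/+. In the T region H2-T23, which encodes the Qa-1 molecule seen by NK receptors of the CD94/NKG2 type, stood at 141, 216 and 155 CPM against 250, 205 and 242 CPM (0.45 ± 0.20, adjusted p = 0.510, edgeR). H2-T24 stood at 33.2, 63.0 and 44.8 CPM against 93.5, 54.1 and 36.4 CPM (0.39 ± 0.34 on the log2 scale). Only GRdim/dim replicate 1 lay above the GR+/+ lungs for H2-T24. H2-T22 stood at 59.1, 90.5 and 64.5 CPM against 82.2, 73.6 and 84.1 CPM (0.16 ± 0.19), with GR+/+ replicate 2 the highest lung. The lowest class I differences were those of H2-M2 (0.10 ± 0.48), H2-D1 and H2-Q1 (0.11 ± 0.43), and H2-M2 and H2-Q1 were read at only 0.538 to 2.73 CPM. With single libraries left out, H2-M2 ran from -0.25 to 0.27 and H2-Q1 from -0.13 to 0.52.

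Reads of these heavy chains could in part not be told apart, because the genes are near copies of one another. In the GENCODE M21 transcripts, 53.0% of the 31-base windows of H2-Q4, 51.8% of H2-Q6, 39.2% of H2-Q7 and 67.4% of H2-T22 also occur in another gene, against 26.9% of H2-D1, 22.8% of H2-K1 and 0% of B2m. How the counting treated reads with more than one match is not given in the sources used here, so the values of single Q and T genes are uncertain. The shares and overlaps were computed on GENCODE M21 gene models, which differ from the counted ones for some members, among them H2-K1, Tapbp, Psmb9 and most class II chains (H2-DMa has 1641 bases in the deposited counts and 3448 in M21).

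**Figure D2:**
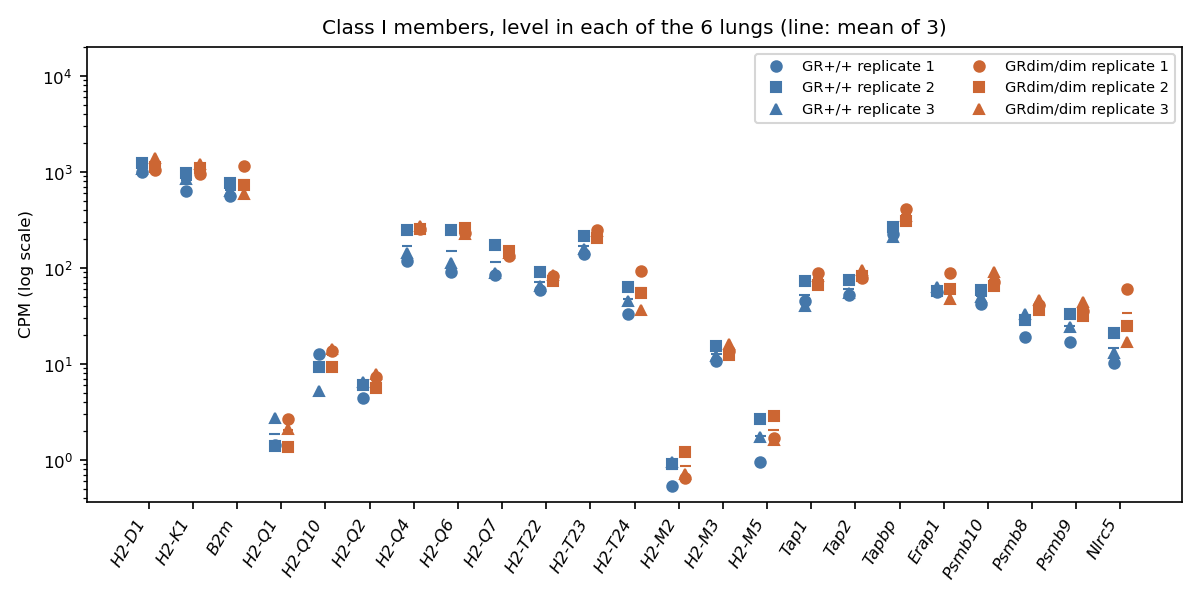
Level of each tested class I gene in each of the 6 lungs, in CPM on a log scale, with circles, squares and triangles for replicates 1, 2 and 3 and a line at the mean of each genotype. GR+/+ replicate 1 is the lowest of the GR+/+ lungs for most of these genes, and GRdim/dim replicate 1 stands far above the rest for Nlrc5.

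The genes that supply and load class I peptides had differences of a like size in most members. Tapbp, which encodes tapasin, stood at 225, 268 and 211 CPM in GR+/+ lungs and 412, 305 and 346 CPM in GRdim/dim lungs. Every GRdim/dim lung was above every GR+/+ lung, and the log2 fold change was 0.59 ± 0.19 (adjusted p = 0.345, edgeR), with 0.48 to 0.71 over the fits that left out 1 library. Tap2, one subunit of the TAP transporter, was likewise separated, at 51.8, 74.5 and 54.3 CPM against 78.4, 82.7 and 94.0 CPM (0.50 ± 0.18, adjusted p = 0.432, edgeR). Its partner Tap1 stood at 44.8, 72.3 and 40.0 CPM against 87.5, 66.2 and 82.3 CPM (0.59 ± 0.23, adjusted p = 0.461, edgeR), and GRdim/dim replicate 2 lay below GR+/+ replicate 2, without which the log2 fold change was 0.90. Erap1 stood at 56.1, 56.8 and 63.1 CPM against 89.2, 59.9 and 47.5 CPM. Its difference of 0.16 ± 0.22 rested on GRdim/dim replicate 1 and was -0.12 without it.

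Exons of Tapbp overlap those of a gene on the opposite strand, Gm19412, by 904 bases in GENCODE M21, exons of Erap1 overlap those of Cast by 834 bases, and those of Tap1 and Psmb9 overlap each other by 212 bases. Exons of Tap2 overlap those of Gm15821 by 533 bases and of Gm20496 by 165 bases, and exons of Psmb8 overlap those of Gm20496 by 498 bases, all on the opposite strand. The same holds for H2-T22 (1003 bases), H2-Q4 (496), H2-DMa (360), Ciita (329), H2-Oa (321) and Nlrc5 (78) with their own neighbours. The use of strand in the counting is not given in the sources used here, so reads of such pairs may not be separable. Tapbp also overlaps Zbtb22 on the same strand by 149 bases, which the use of strand would not resolve.

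Psmb8, Psmb9 and Psmb10 encode the inducible catalytic subunits that take the places of Psmb5, Psmb6 and Psmb7 in the immunoproteasome. Psmb8 stood at 19.2, 28.8 and 32.6 CPM in GR+/+ lungs and 41.4, 36.6 and 46.3 CPM in GRdim/dim lungs, and Psmb10 at 42.1, 58.9 and 49.8 CPM against 70.5, 65.3 and 90.0 CPM. Both were separated between the genotypes, with log2 fold changes of 0.62 ± 0.22 (adjusted p = 0.417, edgeR) and 0.58 ± 0.19 (adjusted p = 0.367, edgeR). Psmb9 stood at 16.9, 33.4 and 24.4 CPM against 35.3, 31.2 and 44.4 CPM and overlapped through GR+/+ replicate 2 (0.57 ± 0.26, adjusted p = 0.521, edgeR), with 0.36 without GR+/+ replicate 1. The constitutive partners differed by -0.04 ± 0.29 (Psmb5), 0.07 ± 0.27 (Psmb6) and -0.33 ± 0.21 (Psmb7) on the log2 scale.

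A ratio of read counts within a library needs no scaling between libraries. The ratio of Psmb10 to Psmb7 was 1.15, 1.54 and 0.926 in GR+/+ lungs and 2.18, 2.15 and 2.23 in GRdim/dim lungs. The GRdim/dim lungs were nearly equal, all stood above the GR+/+ lungs, and the ratio was 1.86-fold higher in them (difference 0.89 in log2, exact permutation test, two-sided, p = 0.1, the smallest that 3 against 3 lungs can give). Psmb8 to Psmb5 stood at 0.457, 0.698 and 0.509 against 1.09, 1.04 and 0.654 (1.66-fold, exact permutation p = 0.2), and Psmb9 to Psmb6 at 0.241, 0.425 and 0.239 against 0.621, 0.389 and 0.350 (1.51-fold, exact permutation p = 0.3). For these pairs 1 GRdim/dim lung or more lay within the GR+/+ range, and the 3 p-values are not adjusted. For the ratio of Psmb9 to Psmb6 the log2 difference of 0.59 was 0.34 without GRdim/dim replicate 1.

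**Figure D3:**
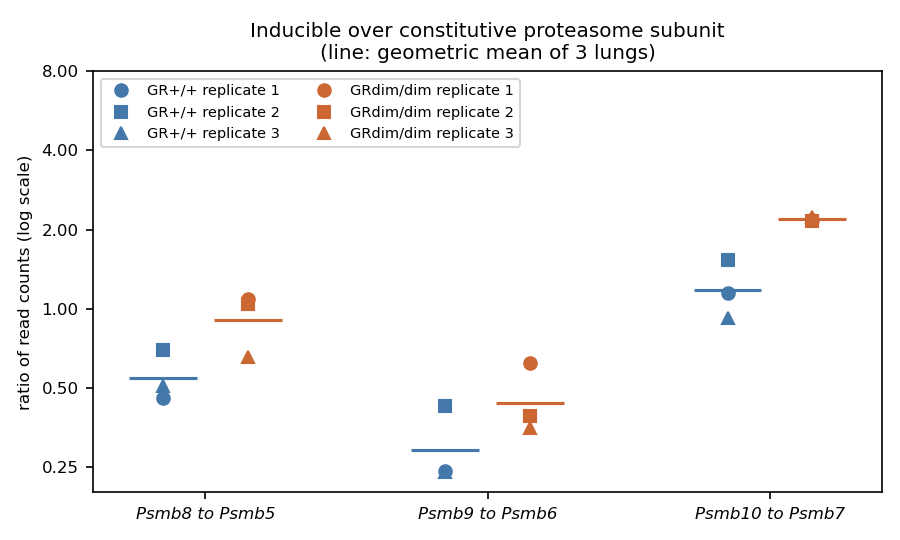
Ratio of the read counts of each inducible proteasome subunit to its constitutive partner in each of the 6 lungs, on a log scale, with lines at the geometric mean of each genotype. For Psmb10 to Psmb7 the GRdim/dim lungs lie between 2.15 and 2.23, above all GR+/+ lungs, while the other pairs overlap.

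Nlrc5, the class I transactivator, had the largest log2 fold change of the tested members and also one of the widest spreads. It stood at 10.2, 20.7 and 12.9 CPM in GR+/+ lungs and 59.7, 24.6 and 16.8 CPM in GRdim/dim lungs. GRdim/dim replicate 1 was far above all others, and GRdim/dim replicate 3 lay below GR+/+ replicate 2. The log2 fold change was 1.21 ± 0.45 (adjusted p = 0.437, edgeR) and 0.52 without GRdim/dim replicate 1. When genes of low counts were kept in the edgeR fit, Nlrc5 had an adjusted p of 0.000673.

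In the class II pathway the chains that form the peptide groove were higher in GRdim/dim lungs 2 and 3 and near the GR+/+ level in GRdim/dim lung 1. H2-Ab1 stood at 286, 296 and 269 CPM in GR+/+ lungs and 288, 475 and 544 CPM in GRdim/dim lungs, and its partner H2-Aa at 329, 294 and 311 CPM against 333, 439 and 497 CPM. H2-Eb1 stood at 280, 264 and 216 CPM against 275, 369 and 489 CPM. The GR+/+ lungs were close together in each of these genes, and GRdim/dim replicate 1 was inside or at the edge of their range. The log2 fold changes were 0.62 ± 0.24 for H2-Ab1 (adjusted p = 0.443, edgeR), 0.44 ± 0.20 for H2-Aa (adjusted p = 0.508, edgeR) and 0.58 ± 0.23 for H2-Eb1 (adjusted p = 0.460, edgeR), and each had an unadjusted p under 0.05. Without GRdim/dim replicate 3 the log2 fold change of H2-Eb1 was 0.35. Summed with the weakly expressed H2-Eb2 (0.794 to 0.956 CPM against 1.08 to 2.08 CPM), these chains stood at 897, 855 and 797 CPM in GR+/+ lungs and 897, 1285 and 1532 CPM in GRdim/dim lungs.

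The invariant chain showed the same order of GRdim/dim lungs. Cd74 stood at 1129, 992 and 836 CPM in GR+/+ lungs and 1092, 1483 and 1707 CPM in GRdim/dim lungs (0.53 ± 0.23, adjusted p = 0.491, edgeR). GRdim/dim replicate 1 lay below GR+/+ replicate 1, and the other GRdim/dim lungs were above all GR+/+ lungs. Ctss, the protease of its last steps, stood at 108, 98.5 and 109 CPM against 122, 128 and 136 CPM. This was a small difference with little spread (0.29 ± 0.15, adjusted p = 0.582, edgeR), and the genotypes did not overlap.

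Of the peptide exchange factors, H2-DMa stood at 33.7, 39.1 and 28.0 CPM in GR+/+ lungs and 35.9, 55.0 and 64.8 CPM in GRdim/dim lungs (0.63 ± 0.24, adjusted p = 0.439, edgeR). H2-DMb2 stood at 11.3, 9.89 and 8.54 CPM against 12.3, 17.4 and 18.5 CPM (0.70 ± 0.24, adjusted p = 0.407, edgeR) and H2-DMb1 at 34.9, 40.0 and 34.1 CPM against 34.2, 51.4 and 60.9 CPM (0.43 ± 0.22, adjusted p = 0.587, edgeR). The pattern of the groove chains, with GRdim/dim replicate 1 low, was seen in all 3 DM genes. Without GRdim/dim replicate 3 the log2 fold change of H2-DMb1 was 0.24. H2-DMb1 and H2-DMb2 share 31.4% and 36.6% of their windows with other genes, mostly with each other.

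The DO genes encode the modulator of DM and are typical of B cells. H2-Ob stood at 8.49, 14.4 and 8.16 CPM in GR+/+ lungs and 18.5, 25.0 and 15.2 CPM in GRdim/dim lungs. All GRdim/dim lungs, replicate 1 included, were above all GR+/+ lungs, and the log2 fold change of 0.93 ± 0.29 was the largest of the class II pathway (adjusted p = 0.342, edgeR). DESeq2 gave H2-Ob an adjusted p of 0.0965, and edgeR with all genes kept, low ones included, gave 0.0426. H2-Oa was low, at 3.11, 3.42 and 1.43 CPM against 1.67, 5.57 and 5.17 CPM (0.66 ± 0.49, adjusted p = 0.748, edgeR), with GRdim/dim replicate 1 among the GR+/+ lungs and log2 fold changes of 0.34 without GR+/+ replicate 3, 1.04 without GRdim/dim replicate 1 and 0.38 without GRdim/dim replicate 2.

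Ciita, the class II transactivator, was at a like level in both genotypes. It stood at 32.9, 28.6 and 18.6 CPM in GR+/+ lungs and 34.9, 26.8 and 20.7 CPM in GRdim/dim lungs (0.05 ± 0.26, adjusted p = 0.977, edgeR), with a sign that turned when GR+/+ replicate 3 (-0.16) or GRdim/dim replicate 1 (-0.15) was left out. Its highest GRdim/dim lung was replicate 1, the lung in which most class II chains were lowest among GRdim/dim lungs. Reads of Ciita do not separate its promoters in these counts.

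**Figure D4:**
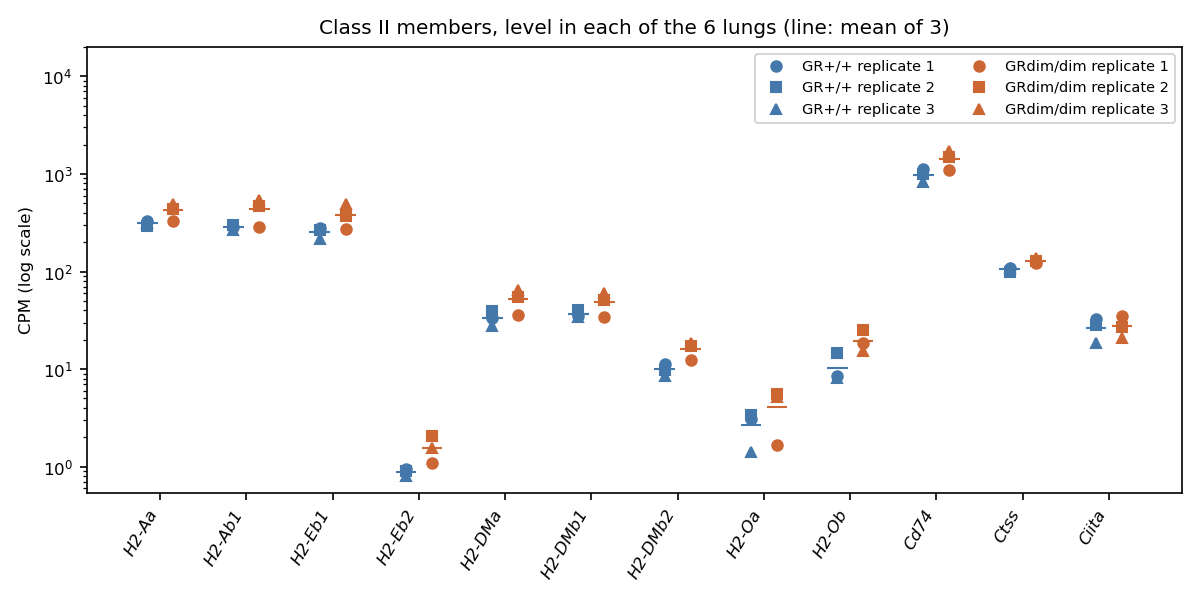
Level of each tested class II gene in each of the 6 lungs, in CPM on a log scale, with circles, squares and triangles for replicates 1, 2 and 3 and a line at the mean of each genotype. GRdim/dim replicate 1 lies in or just above the GR+/+ range for the groove chains, the DM genes and Cd74, and H2-Ob is separated between the genotypes.

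Both classes stood above the GR+/+ mean in every GRdim/dim lung, with the smallest value for class II in replicate 1. Against the mean of the GR+/+ lungs, the median class I gene stood 0.50, 0.34 and 0.46 higher on the log2 scale in GRdim/dim lungs 1, 2 and 3, and the median class II gene 0.13, 0.65 and 0.77 higher, where the median over all genes tested was -0.019, -0.021 and -0.0021. GRdim/dim replicate 1 was above every GR+/+ lung for 14 of 23 class I and 6 of 12 class II genes, replicate 2 for 10 and 11, and replicate 3 for 13 and 11. Over all genes tested the corresponding shares were 29.7%, 27.9% and 32.7%. Among the GR+/+ lungs, replicate 1 was the lowest for 19 of 23 class I genes and replicate 3 for 10 of 12 class II genes, beside 30.4% and 38.7% of all genes tested. No test was made of the difference between the classes, since both were read from the same 3 lungs.

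**Figure D5:**
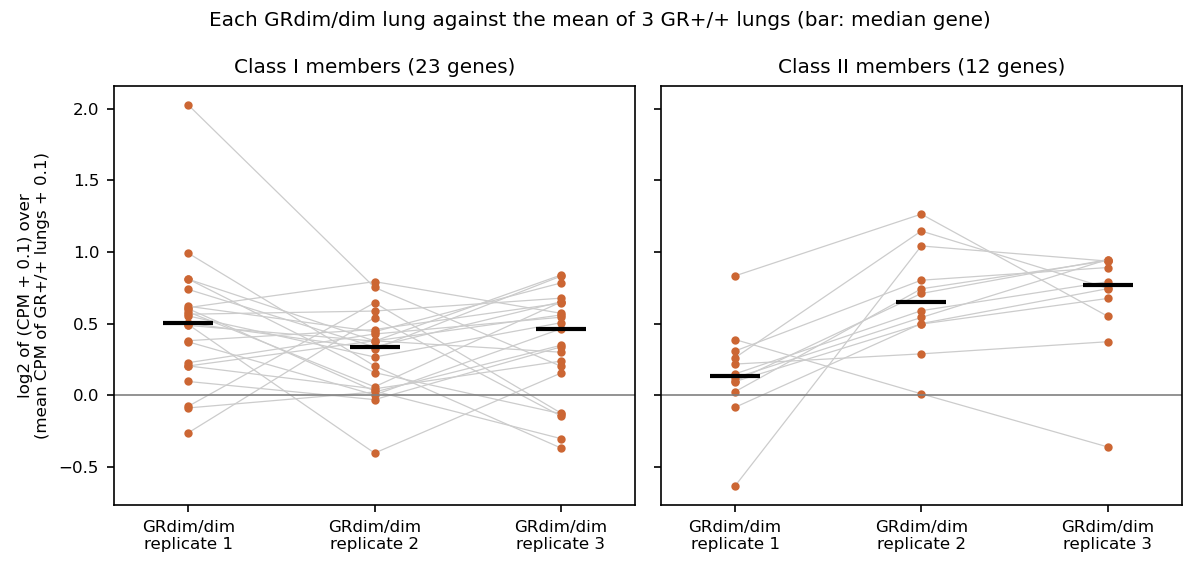
Each GRdim/dim lung against the mean of the 3 GR+/+ lungs, as log2 of CPM with 0.1 added, 1 point per gene, lines joining the same gene and bars at the median gene. The class II median lies at 0.13 in replicate 1 and at 0.65 and 0.77 in replicates 2 and 3, and the class I median at 0.50, 0.34 and 0.46.

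Summed markers of B cells, T cells, NK cells and of monocytes and interstitial macrophages were higher in all GRdim/dim lungs than in any GR+/+ lung, while those of dendritic cells, neutrophils and alveolar macrophages overlapped. In bulk lung tissue, more cells of a type and more RNA per cell cannot be told apart. Of 11 B cell markers found, all had a higher mean in GRdim/dim lungs and 8 an unadjusted p under 0.05 in edgeR, as did 5 of the 12 T cell, 7 of the 11 tested NK cell, 5 of the 12 dendritic cell, 3 of the 12 monocyte and interstitial macrophage and 4 of the 10 tested neutrophil markers (4.91% of all genes tested were higher at this p). The summed level of the B cell markers was 37.5 to 85.1 CPM in GR+/+ lungs and 87.7 to 137 CPM in GRdim/dim lungs. GR+/+ replicate 2, the GR+/+ lung with the highest H2-Q4, H2-Q6 and H2-Ob, also had the highest sum of B cell, T cell, NK cell, dendritic cell, alveolar macrophage and endothelial cell markers among the GR+/+ lungs, but not of monocyte and interstitial macrophage (515 CPM) or neutrophil markers (391 CPM), and the lowest of alveolar type 2 cell markers (18538 CPM).

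T cell markers summed to 39.4 to 71.0 CPM against 73.1 to 106 CPM and NK cell markers to 12.9 to 30.4 CPM against 35.4 to 57.3 CPM, with 11 of 12 and 12 of 12 higher in the mean. Dendritic cell markers summed to 104 to 167 CPM against 151 to 187 CPM (10 of 12 higher), and those of monocytes and interstitial macrophages to 462 to 660 CPM against 753 to 1388 CPM (11 of 12 higher). Neutrophil markers summed to 351 to 615 CPM against 482 to 1309 CPM (11 of 12 higher), the highest value being that of GRdim/dim replicate 1, where Nlrc5 and B2m were also highest. Alveolar macrophage markers overlapped, at 646 to 721 CPM against 581 to 679 CPM (3 of 12 higher), as did those of alveolar type 2 cells, at 18538 to 27061 CPM against 19804 to 27800 CPM (5 of 12 higher). At an unadjusted p under 0.05 in edgeR, 1 alveolar macrophage marker was higher and 1 lower. By the same measure 2 alveolar type 2 cell markers were higher and 0 lower. Endothelial markers summed to 3814 to 6049 CPM against 4278 to 5153 CPM, with 2 of 12 higher in the mean and, at an unadjusted p under 0.05 in edgeR, 1 higher and 2 lower. Of these markers only Camp, a neutrophil gene, was at 0 in some libraries. The part of these cell types in the differences of the MHC genes was not tested.

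The other genes of the pathways were taken from 5 lists of 69 genes, 66 of which were tested. H60c, a ligand of the activating receptor NKG2D that is related to class I molecules, was their only DEG. It stood at 1.43, 1.38 and 2.57 CPM in GR+/+ lungs and 10.2, 9.85 and 8.59 CPM in GRdim/dim lungs. The genotypes were far apart with little spread within each, and H60c rose in GRdim/dim lungs by 2.38 ± 0.33 on the log2 scale (adjusted p = 0.0243, edgeR). Its adjusted p was above 0.05, at 0.112, 0.101, 0.0709, 0.0748 and 0.0558, without GR+/+ replicate 1, GR+/+ replicate 2 and GRdim/dim replicates 1, 2 and 3, with log2 fold changes of 2.23 to 2.45 in these fits. Of the other 9 tested class I-like genes, among them Mr1, Fcgrt and Hfe, none was a DEG.

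At an unadjusted p under 0.05 in edgeR, 9 of the 66 genes were higher and 1, Ctsl, was lower in GRdim/dim lungs (4.91% and 4.68% of all genes tested), and their median log2 fold change was 0.19. Among the regulators Irf7, an interferon-induced factor, stood at 17.6, 19.8 and 16.2 CPM in GR+/+ lungs and 69.3, 24.4 and 34.1 CPM in GRdim/dim lungs. All GRdim/dim lungs were higher, replicate 1 most of all (1.25 ± 0.34, adjusted p = 0.253, edgeR). Against the mean of the GR+/+ lungs, Irf7 stood 1.95, 0.45 and 0.93 higher on the log2 scale in GRdim/dim lungs 1, 2 and 3. Irf1, which binds class I promoters, stood at 114, 127 and 116 CPM against 92.5, 85.7 and 138 CPM (-0.17 ± 0.20), with -0.41 without GRdim/dim replicate 3 and values nearer 0 without GRdim/dim replicate 1 (-0.08), GRdim/dim replicate 2 (-0.04) or GR+/+ replicate 2 (-0.12). Rfx5, the X box factor of both classes, stood at 23.6, 27.5 and 30.8 CPM against 29.5, 25.3 and 20.2 CPM (-0.13 ± 0.21), with 0.0073 without GRdim/dim replicate 3, -0.25 without GRdim/dim replicate 1, -0.22 without GR+/+ replicate 1 and -0.03 without GR+/+ replicate 3. Ifng itself was at or below 0.498 CPM in every library and could not be tested.

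Among the genes of peptide supply, Psme1, a subunit of the proteasome activator PA28, was separated between the genotypes at 77.9, 95.8 and 95.1 CPM against 118, 123 and 137 CPM (0.49 ± 0.16, adjusted p = 0.360, edgeR). Its partner Psme2 stood at 39.3, 51.2 and 69.0 CPM against 64.6, 54.8 and 85.3 CPM (0.36 ± 0.24, adjusted p = 0.708, edgeR), with 0.19 without GR+/+ replicate 1, 0.59 without GR+/+ replicate 3 and 0.17 without GRdim/dim replicate 3. The 12 class I genes of this list, which includes the chaperones Calr and Canx, had a median log2 fold change of 0.08 and no DEG, and the 11 class II genes, mostly lysosomal proteases, a median of 0.26 and no DEG. Of these 11 genes, Lgmn (0.65 ± 0.19) and Ctsh (0.55 ± 0.23) were higher at an unadjusted p under 0.05 in edgeR, and Ctsl (-0.39 ± 0.17) was lower. The shares of all genes tested were 4.91% higher and 4.68% lower. The 12 tested receptors of MHC molecules had a median of 0.57, all above 0 (50.9% of all genes tested), with 3 higher at an unadjusted p under 0.05 in edgeR (4.91% of all genes tested). These were Klrd1, Klrc1 and Klrc2, which encode CD94 and its NKG2 partners, the receptors of the H2-T23 product. Klrd1 stood at 2.69, 4.50 and 2.32 CPM in GR+/+ lungs and 7.12, 9.06 and 4.97 CPM in GRdim/dim lungs. Klrc1 had few counts, 3, 10 and 9 in GR+/+ lungs and 15, 36 and 14 in GRdim/dim lungs. Klrc2 likewise had few, 2, 13 and 8 against 19, 56 and 17. The 3 genes are typical of NK cells, whose markers were higher in the same lungs. The part of NK cells in these differences was not tested.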

How the data were processed

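RNA of 6 lungs, 3 per genotype, was sequenced after poly(A) capture. The authors deposited raw counts of reads per gene, whole numbers without normalization, for 54532 genes. Their processing notes name mm10 and DESeq2, and the aligner, the counting tool, the use of strand and the annotation release are not given in the sources used here. The numbers of the lungs come from the sample labels, which do not say that equal numbers share a litter or day. The lungs within a genotype were unlike beyond counting error (chi-square of 19.2 to 62.9 per degree of freedom), so each was counted as a replicate. At 15687734 to 32082940 counts per library, 3 counts correspond to 0.0953 to 0.194 CPM.

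edgeR 4.0.16 in R 4.3.3 was fitted to the whole table (TMM scaling, filterByExpr, robust glmQLFit, glmQLFTest) without covariates, and p-values were adjusted over all 16568 genes tested. DEGs were called at an adjusted p under 0.05 and a log2 fold change beyond 0.5. SEs were taken as the log2 fold change over the root of the F statistic. The procedure was also run on simulated counts, with changes larger than those of most members. That run does not show how many differences of the size seen here would be missed. Ratios of proteasome subunits were compared by exact permutation over the 20 splits of the lungs. Other settings tried were DESeq2 1.42.0, RLE factors, a fit that kept all genes, a minimum of 10 counts per library, a replicate block, a sex-linked covariate, calls by adjusted p alone and each library left out. Exons and shared 31-base windows were taken from GENCODE M21 and promoters from RefSeq. RefSeq proteins were not used here.

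The members and the lists of other genes were chosen with earlier results of these data known. The rule for genes named with values covered the main heavy chains, loading, proteasome and class II genes and both transactivators, the 3 highest and 3 lowest log2 fold changes of each class, the members without overlap between genotypes and any DEG, and, of the other pathway genes, Irf1, Ifng, Rfx5, Psme1, Psme2 and any DEG. A further gene of that rule is not reported here. Irf7, H2-Q7, H2-T22, H2-T23, H2-T24, Ctsl, Lgmn, Ctsh, Klrd1, Klrc1 and Klrc2 were named after their values were seen. Counts at an unadjusted p were added after seeing that no member was a DEG.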

Additional observations from a re-analysis of the deposited data

Results flagged for a closer look

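H2-Ea-ps, annotated as a pseudogene in the deposited counts and therefore not among the protein-coding genes above, had 6 counts in GRdim/dim replicate 3 and 0 counts in each of the other 5 libraries, where 0 counts allow up to 3. H2-Ea encodes the partner chain of H2-Eb1, and the H2-b haplotype of C57BL/6 mice carries a deletion of its promoter. This was noted because the signal lies outside the genes compared and above the level in the GR+/+ lungs. It is a single lung with few reads, and no explanation was tested.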

How the results depend on the processing

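DEG counts of the members were 0 in both classes with RLE factors, a minimum of 10 counts per library, DESeq2, a replicate block, the sex-linked covariate, no fold threshold and each left-out library. Without a filter on low counts, 1 class I gene (Nlrc5) and 1 class II gene (H2-Ob) were called, and 3 other pathway genes, as also with DESeq2 (3), against 1 in the report. The whole table then gave 522 DEGs without the filter and 274 with DESeq2, against 28. Leaving out 1 library gave 0 to 1 pathway DEGs, 1 to 11 class I genes and 1 to 10 class II genes at an unadjusted p under 0.05 in edgeR. The class II count was 4 with the sex-linked covariate. For these settings and for the replicate block, shares of all genes at this p are not given. Only numbers, not animals, are shared between genotypes: correlations of equally numbered lungs were 0.22, 0.036 and -0.055. A replicate block gave 9 class I and 5 class II genes at an unadjusted p under 0.05, 34 DEGs in the whole table, and, by construction, the same mean ratio differences (0.73, 0.59 and 0.89 log2 units for Psmb8 to Psmb5, Psmb9 to Psmb6 and Psmb10 to Psmb7), with exact sign-flip p of 0.25, 0.5 and 0.25, where 3 pairs cannot give less than 0.25.

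Of 395 values of 33 named genes under alternatives, 375 kept direction and side of the threshold. Signs turned in 6 genes. With a library left out, log2 fold changes ran from -0.032 to 0.21 for H2-D1, -0.12 to 0.34 for Erap1, -0.16 to 0.23 for Ciita, -0.25 to 0.27 for H2-M2, -0.13 to 0.52 for H2-Q1 and -0.25 to 0.0073 for Rfx5. With the sex-linked covariate Ciita stood at -0.036, H2-D1 at 0.13, Erap1 at 0.14, H2-M2 at 0.39, H2-Q1 at 0.034 and Rfx5 at -0.059. The causes were not tested. The ranges over left-out libraries were 0.60 to 0.96 for Psmb8 to Psmb5, 0.34 to 0.87 for Psmb9 to Psmb6 and 0.72 to 1.09 for Psmb10 to Psmb7. With 3 lungs per genotype, no exact test could give a p under 0.1.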

Other observations

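Besides the 46 protein-coding genes, 11 genes with an H2- symbol were listed as pseudogenes in the deposited counts, and 6 of them had enough reads to be tested. Their log2 fold changes ran from -0.96 ± 0.51 for H2-Bl (adjusted p = 0.595, edgeR) to 0.52 ± 0.39 for H2-T-ps (adjusted p = 0.749, edgeR), and none was a DEG. H2-Bl stood at 0.896, 1.20 and 1.37 CPM in GR+/+ lungs and 0.485, 0.374 and 0.969 CPM in GRdim/dim lungs, lower on average than in GR+/+ lungs, where all tested protein-coding members had estimates above 0. H2-Q5 stood at 16.4, 38.7 and 18.2 CPM against 20.1, 23.3 and 22.3 CPM, with GR+/+ replicate 2 the highest lung, as among the GR+/+ lungs for H2-Q4, H2-Q6 and H2-Q7. It shares 57.8% of its 31-base windows with other genes, so its reads are partly exchangeable with theirs, and whether this sets its values was not tested.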
